A study of Mus musculus with 34 samples.

Results

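The BCL2 family was followed in sorted hematopoietic stem cells (HSCs) through 10 genes, taken as the rows of the gene count table with the names Bcl2, Bcl2l1, Bcl2l2, Mcl1, Bax, Bak1, Bcl2l11, Bid, Bad and Bbc3, out of 13108 rows in all. All 10 had a row and all 10 passed the filter on low counts in every comparison. The study asked what loss of the m6A reader YTHDF2 does to HSCs from young and from aged mice. HSCs were sorted as LSK CD48-CD150+ cells, and 100 cells went into each SMART-Seq2 library, which is built from amplified cDNA of poly(A) RNA. Each of the 17 mice gave 2 libraries, and the libraries of a mouse were added so that the mouse was the replicate.

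All mice were C57BL/6 and carried the floxed Ythdf2 allele, in which exon 2 lies between loxP sites and GFP follows the start codon, so that the control group also made a GFP fusion. Ythdf2 CKO mice (Ythdf2 fl/fl;Vav-iCre, written KO in the sample labels) also carried the Vav-iCre transgene, which is active throughout the blood lineages and not only in HSCs. Ythdf2 CTL mice (Ythdf2 fl/fl, written WT in the labels) had no Cre. There were 4 young CTL and 4 young CKO mice, aged 8 to 12 wk, and 4 aged CTL and 5 aged CKO mice, aged 1 yr. The shallow aged CTL 99 B library (187034 counts) was dropped here, as the submitters had done, so mouse CTL 99 was represented by a single library.

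BCL2 family proteins decide whether the outer membrane of the mitochondrion is breached during apoptosis. BAX and BAK1, the effectors, form the pores that let cytochrome c out. BCL2, BCL-XL (encoded by Bcl2l1), BCL-W (Bcl2l2) and MCL1 hold the effectors in check, and the BH3-only proteins BIM (Bcl2l11), BID, BAD and PUMA (Bbc3) carry stress signals to both. HSCs are known to depend on MCL1, and overexpression of BCL2 is known to enlarge the HSC pool.

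What the 10 genes share in sequence is the BH3 motif, the short helix by which the proteins bind each other. The coding sequences were searched for a leucine or methionine codon, 2 codons of any kind and a codon for a small or aliphatic hydrophobic residue. After these came glycine, alanine or serine, then aspartate, then an acidic residue or glycine. Matches in other genes were not counted. Each member held exactly 1 match. The runs of 30 bases around it are shown for 6 members, with the gene's coding strand read 5′ to 3′ and capitals on the first codon of the motif and on the 2 codons that end in aspartate. Coordinates are GRCm38, the build to which the authors aligned, with gene models from GENCODE M21.
Bcl2: catctgaccCTCcgccgggctGGGGATgac
Bcl2l1: aagcaagcgCTGagagaggcaGGCGATgag
Mcl1: ctggagaccCTGcggcgcgtgGGCGACggc
Bax: agcgagtgtCTCcggcgaattGGAGATgaa
Bcl2l11: gcacaggagCTGcggcggatcGGAGACgag
Bad: ggccgtgagCTCcgaaggatgAGCGATgag
Each run lies within 1 coding exon, at chr1:106712581-106712610 (Bcl2, minus strand), chr2:152829703-152829732 (Bcl2l1, minus strand), chr3:95659427-95659456 (Mcl1, plus strand), chr7:45466003-45466032 (Bax, minus strand), chr2:128147141-128147170 (Bcl2l11, plus strand) and chr19:6950783-6950812 (Bad, plus strand). In Bad the codon before aspartate encodes serine, and in the other 5 it encodes glycine.

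YTHDF2 binds m6A and hastens decay of the RNA that carries it, and m6A is laid down in a short consensus of which GGACT is 1 form. All 10 members had at least 1 GGACT in their principal transcript (searched on the transcript's own strand, with no overlap with another motif considered), as did 91.9% of the 11830 tested genes with a coding transcript. The density over those genes had a median of 1.05 per kb and quartiles of 0.63 and 1.53 per kb. Bax had 3.46 per kb, Bbc3 2.76, Mcl1 2.34, Bad 2.07, Bid 1.83 and Bak1 1.68 per kb, all above the upper quartile. Bcl2 had 1.25, Bcl2l1 1.17, Bcl2l11 0.99 and Bcl2l2 0.85 per kb, between the quartiles. The GGACT closest to the stop codon was within 60 bases of it in 5 members, and no share over all genes was computed. The 5 were Mcl1, Bax, Bak1, Bid and Bbc3. Windows of 25 bases are shown for the 2 of these with the highest RNA level and for the 2 members whose RNA differed with age, with the GGACT in capitals.
Mcl1: gtgcaataggGGACTcttaaagctc
Bax: ccactgccttGGACTgtgtcttttc
Bcl2: ggtcttccatGGACTggagaaggga
Bcl2l1: gaagagaataGGACTgaggccccag
The windows lie at chr3:95660832-95660856 (Mcl1, 3′ UTR, plus strand), chr7:45461831-45461855 (Bax, 3′ UTR, minus strand), chr1:106542701-106542725 (Bcl2, 3′ UTR, minus strand) and chr2:152829876-152829900 (Bcl2l1, coding exon, minus strand). These matches describe letters in the reference, and methylation of these sites was not analysed here.

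The total count per mouse ranged from 2218618 to 10125624, and 3 counts, the smallest number read as a signal, corresponded to 0.292 to 1.24 CPM. CPM are counts relative to library size, here scaled by the TMM method. The targeted gene was examined first. Ythdf2 stood at 50.3 to 60.2 CPM in young CKO mice and at 93.3 to 123 CPM in young CTL mice, and the fitted log2 fold change was -0.95 (SE 0.17, adjusted p = 0.0406, edgeR quasi-likelihood test). The young groups did not overlap, but this call was close to the threshold. It was kept in 6 of 9 alternatives and lost with the Y-linked covariate (adjusted p = 0.176), the replicate block (0.128) and all mice in one fit (0.804), and without 1 mouse it was kept only when young CKO 3 was left out, with an adjusted p of 0.0768 to 0.211 in the other 7 omissions. Its log2 fold change was -1.01 to -0.87 in all of these. Gene counts also take in exons that the deletion spares. In aged mice the level went against the label in 2 animals. The mouse labelled aged CKO 121 had 188 CPM beside 72.4 to 87.7 CPM in the other aged CKO mice, and the mouse labelled aged CTL 124 had 70.4 CPM beside 142 to 179 CPM in the other aged CTL mice. The genotype effects in aged mice and the age effects of the members are therefore given with all mice and again without these 2. The library codes in the sample descriptions share 1 stem in all young and another in all aged libraries, so age and library set cannot be told apart. Reads of Y-linked genes were present, at 512 counts or more, in 3 young CTL, 1 young CKO, 1 aged CTL and 1 aged CKO animal, and the groups therefore differed in their mix of sexes. All 10 HSC markers examined, among them Kit and Procr, were present in every group, with a summed level of 1429 to 2969.5 CPM per mouse over all groups. Megakaryocyte markers, 7 of 7 detected, summed to 518 to 890 CPM in young CTL, 1080.0 to 3213 in young CKO, 594 to 856 in aged CTL and 853 to 2616 in aged CKO mice. Myeloid markers, mostly Lyz2 and Prtn3, summed to 577 to 1288 CPM over all mice, erythroid markers to at most 134 CPM, B cell markers, nearly all from Cd79b with Ms4a1 at 0, to at most 152 CPM, and the T cell marker Cd4 to at most 3.11 CPM.

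The family spanned a wide range of RNA levels, and 4 genes carried most of it. Levels were compared per kb of exon, with all annotated exons of a gene merged. This length exceeded that of the principal transcript unequally, at 1576 against 867 bases for Bax and 4586 against 2568 for Bcl2l1. For Mcl1 both were 3418 bases. The order of genes, and the sums and shares below, depend on this choice, and transcript length was not tried. On this measure Bax and Mcl1 had the 2 highest means in all 4 groups and Bcl2l11 and Bcl2l2 the 2 lowest. In young CTL HSCs, Bax stood at 63.6 CPM per kb (61.7 to 64.7 over 4 mice), followed by Mcl1 at 48.6 (38.3 to 54.1), Bad at 25.3 and Bid at 19.5 CPM per kb. Bcl2l1 (7.39), Bak1 (5.27) and Bcl2 (4.44 CPM per kb) came next, followed by Bbc3 (2.82), Bcl2l11 (1.56) and Bcl2l2 (1.03 CPM per kb), and the ranges of these 6 genes overlapped from each to the next. In aged CTL mice Mcl1 came first at 64.4 and Bax second at 43.5 CPM per kb, but their ranges overlapped. In aged CKO mice Bcl2l1 had moved to the third place at 25.5 CPM per kb, with a range that overlapped that of Bad at 23.1.

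**Figure D1:**
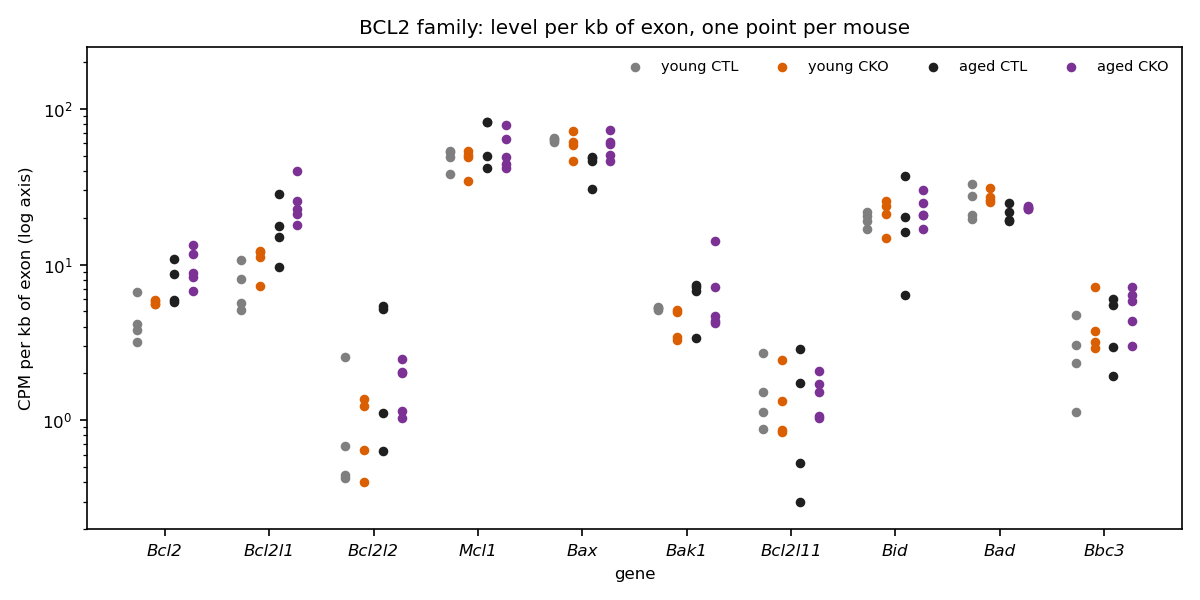
RNA level of the 10 family members per kb of exon on a log axis, 1 point per mouse, coloured by group (4 young CTL, 4 young CKO, 4 aged CTL and 5 aged CKO mice). By group mean, Bax and Mcl1 are highest in every group and Bcl2l2 and Bcl2l11 lowest, while points of single mice overlap between genes.

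Added per kb over the 10 genes, the family reached 147 to 206 CPM per kb in young CKO, 167 to 188 in young CTL, 175 to 206 in aged CTL and 183 to 248 in aged CKO mice. The antiapoptotic genes made up 28.8% to 37.0% of that sum in young CTL and 31.1% to 38.7% in young CKO mice. In aged mice they made up 36.2% to 56.6% (CTL) and 36.2% to 48.5% (CKO). The young and aged ranges touched only through the aged CTL 65 and aged CKO 81 mice, both at 36.2%. The effectors Bax and Bak1 held 37.1% to 40.0% in young CTL and 33.8% to 36.7% in young CKO mice, and 20.1% to 29.5% and 29.1% to 33.8% in aged CTL and CKO mice. With mice 121 and 124 left out, the antiapoptotic range was 36.2% to 55.1% in aged CTL mice, the family sum there was 175 to 188 CPM per kb, and the other aged ranges were as given. The shares of a sum move against each other by construction, and they are given here as a description.

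**Figure D2:**
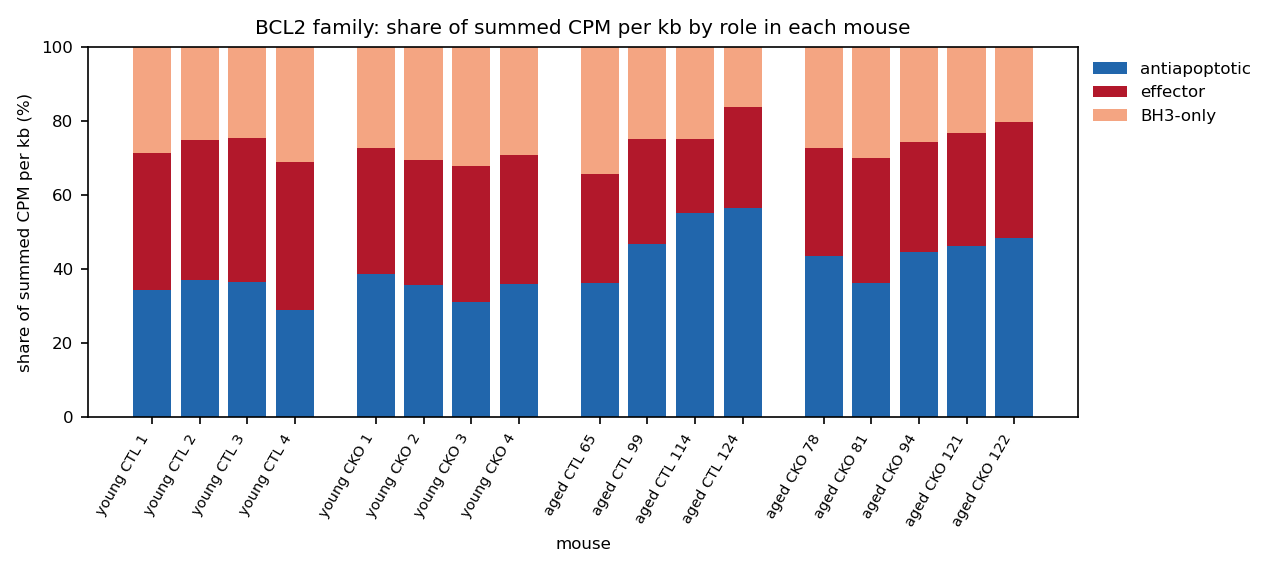
Share of the summed CPM per kb of the 10 members that falls to antiapoptotic, effector and BH3-only genes, 1 bar per mouse. The antiapoptotic share is 28.8% to 38.7% in young mice and 36.2% to 56.6% in aged mice.

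Between genotypes, no member passed the test at either age. Of all genes tested, 0.174% were called in young mice (15 higher and 5 lower in CKO, of 11526), and 0 of the 10 members were among them. In aged mice 0% of 11961 genes were called, although 1208 had an unadjusted p under 0.05. Without the mice labelled CKO 121 and CTL 124, 0.333% of genes were called and again 0 members. Members with an unadjusted p under 0.05 numbered 0 at both ages by the quasi-likelihood test, by the likelihood ratio test of edgeR over mice and by DESeq2, and in young mice 1, Bcl2l1, in 3 alternatives (the likelihood ratio test and limma over libraries, and the Y-linked covariate). The number reached 2 in aged mice when libraries were taken as replicates (Bax and Bcl2l1) and when mice 121 and 124 were left out (Bax, log2 fold change 0.53, and Bcl2, 0.64). Groups did not overlap for 0 of the 10 members in aged mice, beside 3.48% of all genes. With age, Bcl2 and Bcl2l1 were higher in both genotypes, and these were the members called in that comparison, 2 of 10 in each genotype. Of all genes, 6.70% were called as higher in aged than in young CTL mice and 7.21% in CKO mice.

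**Figure D3:**
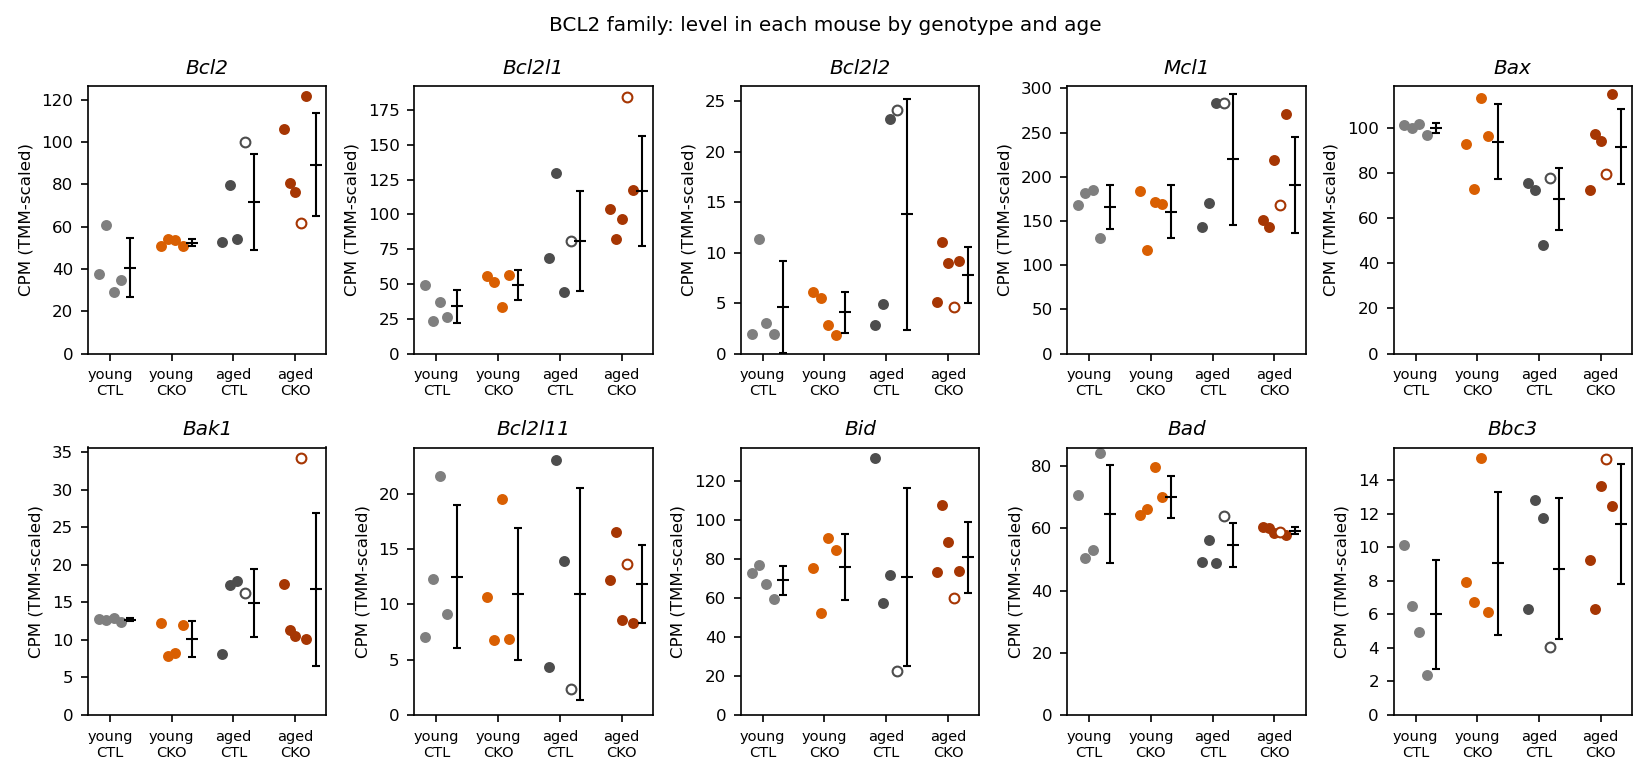
TMM-scaled CPM of each family member in every mouse, by group, with the mean and SD of the group as a black bar beside the points. Open circles mark the mice labelled aged CKO 121 and aged CTL 124. The means of Bcl2 and Bcl2l1 lie higher in aged than in young mice, with some overlap in CTL mice, and the genotypes overlap at each age for both genes.

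Bcl2 (chr1:106538178-106714274, minus strand), the founding antiapoptotic gene, had levels of 37.8, 61.0, 29.2 and 34.7 CPM in the 4 young CTL mice and of 51.0, 54.3, 53.5 and 51.1 CPM in the 4 young CKO mice. In aged CTL mice 65, 99, 114 and 124 it had 52.8, 79.6, 54.2 and 100.0 CPM, and in aged CKO mice 78, 81, 94, 121 and 122 it had 106.5, 80.6, 76.3, 61.8 and 122 CPM. All 5 aged CKO mice were above all 4 young CKO mice, whereas young CTL mouse 2 was above 2 of the aged CTL mice, and the genotypes overlapped at both ages. Young CKO mice lay close together (SD 1.68 around a mean of 52.5 CPM, n = 4), and young CTL mice did not (SD 14.0 around 40.7 CPM, n = 4). The log2 fold change from young to aged was 0.82 in CTL (SE 0.26, adjusted p = 0.0411) and 0.77 in CKO mice (SE 0.25, adjusted p = 0.0385), where the median over all genes was 0.11 and 0.07. The groups did not overlap in CKO mice (exact permutation p = 0.0159, two-sided, the smallest that 5 against 4 mice allow), as held for 20.4% of all genes. These calls were close to the threshold, and were kept in 7 of 10 alternatives in CTL and in all 10 in CKO mice. The CTL call was lost by limma, with 2 groups in the fit and without mice 121 and 124. In CTL mice the adjusted p rose to between 0.0917 and 0.137 without young CTL 1, 3 or 4 or aged CTL 99 or 124, and in CKO mice to between 0.0527 and 0.113 without any young CKO mouse or without aged CKO 78, 81 or 122. Without both mice 121 and 124 the log2 fold change was 0.60 in CTL (adjusted p = 0.0965) and 0.88 in CKO mice (adjusted p = 0.0114). By genotype it was 0.37 in young (SE 0.24, adjusted p = 0.849) and 0.33 in aged mice (SE 0.26, adjusted p = 0.715), and 0.64 in aged mice without 121 and 124 (adjusted p = 0.311).

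Bcl2l1 (chr2:152780668-152831728, minus strand) encodes BCL-XL, the antiapoptotic protein best known for the survival of late erythroid cells and platelets. Young CTL mice had 49.2, 23.5, 36.9 and 26.0 CPM and young CKO mice 55.6, 51.4, 33.5 and 56.2 CPM. Aged CTL mice 65, 99, 114 and 124 had 68.6, 129.9, 44.3 and 80.7 CPM, and aged CKO mice 78, 81, 94, 121 and 122 had 104, 82.3, 96.7, 184 and 117 CPM. Every aged CKO mouse was above every young CKO mouse, and among CTL mice only aged 114 fell below a young animal, young CTL 1. The highest value of the series belonged to the mouse labelled aged CKO 121. From young to aged the log2 fold change was 1.25 in CTL (SE 0.31, 95% interval 0.60 to 1.90, adjusted p = 0.0119) and 1.25 in CKO mice (SE 0.30, 0.63 to 1.87, adjusted p = 0.00705), or 2.37-fold and 2.38-fold. The CKO call was kept in all 10 alternatives and without each of the 9 mice in turn, and the CTL call in 9 of 10 alternatives and 7 of 8 omissions, with an adjusted p of 0.0674 by limma over libraries and 0.0532 without aged CTL 99. Without mice 121 and 124 it was 1.24 in CTL (adjusted p = 0.00893) and 1.02 in CKO mice (adjusted p = 0.0166). Between genotypes the mean was higher in CKO mice at both ages, by a log2 fold change of 0.54 in young (SE 0.27, 95% interval -0.03 to 1.11, adjusted p = 0.717) and 0.54 in aged mice (SE 0.31, -0.12 to 1.20, adjusted p = 0.579), neither of which passed the test. In aged mice it was 0.32 without 121 and 124 (adjusted p = 0.754).

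Values that moved with age beside these 2 genes were the library set, which is the same split as age, the targeted gene and genes of several marker lists. Ythdf2 itself rose with age in CKO mice (log2 fold change 0.83, adjusted p = 0.0433) and had a value of 0.36 in CTL mice (adjusted p = 0.423). Without mice 121 and 124 the Ythdf2 values were 0.58 in CTL and 0.47 in CKO mice. Those 2 mice were set apart by their Ythdf2 level, so a p-value for Ythdf2 without them is no test and is not given. The HSC markers summed to 1429 to 2279.6 CPM in young and 1596 to 2969.5 CPM in aged mice, ranges that overlap. Their median log2 fold change with age was 0.40 in CTL and 0.44 in CKO mice beside 0.11 and 0.07 over all genes, with 8 and 9 of 10 above 0. Among these genes Kit and Gata2 rose and Ly6a fell in CKO mice. Cd48, whose protein the sort selects against, fell with age, from a mean of 67.9 to 11.8 CPM in CTL mice (log2 fold change -2.48, adjusted p = 0.0273) and from 101.5 to 12.3 CPM in CKO mice (-3.04, adjusted p = 0.00489). Flt3, a marker of multipotent progenitors on which the cells were not sorted, had means of 31.9 and 46.7 CPM in young and aged CTL mice and 25.3 and 17.8 CPM in CKO mice, and was not called; the 2 genes together summed to 84.6 to 146 CPM in young and 13.8 to 120 CPM in aged mice. Of the 7 megakaryocyte markers, 2 rose with age in CTL mice (Vwf and Selp) and 4 in CKO mice (Itga2b, Gp9, Vwf and Selp), with list medians of -0.09 and 0.83 on the log2 scale beside 0.11 and 0.07 over all genes. Of the 3 erythroid markers tested 0 were called in CTL mice, and Car1 fell in CKO mice from a mean of 33.9 to 3.51 CPM (log2 fold change -3.32, adjusted p = 0.0475), while Klf1 and Epor were not called. Their part in the age differences of Bcl2 and Bcl2l1 was not tested. In bulk samples such as these, fewer cells of a kind that express a gene and less of its RNA in each cell cannot be told apart.

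Mcl1 (chr3:95658788-95663176, plus strand) encodes a short-lived antiapoptotic protein and was the member with the most counts, between 413 and 2022 per mouse. Only in aged CKO 121 did another member, Bcl2l1, have more counts (1400 beside 1280 of Mcl1). Young CTL mice had 168, 181, 185 and 131 CPM and young CKO mice 184, 117, 172 and 169 CPM. Aged CTL mice 65, 99, 114 and 124 had 143, 170.4, 283 and 283 CPM, and aged CKO mice 78, 81, 94, 121 and 122 had 151, 144, 219, 168 and 272 CPM. The groups overlapped in all comparisons, and the aged mice of either genotype fell into some near the young level and some well above it. The log2 fold change by genotype was -0.05 in young mice (SE 0.17, 95% interval -0.42 to 0.32) and -0.20 in aged mice (SE 0.25, -0.73 to 0.34), with adjusted p of 0.983 and 0.853. In young mice this interval bounds any difference in Mcl1 RNA to between a fold of 0.748 and 1.25. With age it was 0.41 in CTL (SE 0.24, adjusted p = 0.262) and 0.25 in CKO mice (SE 0.23, adjusted p = 0.491). Without mice 121 and 124 it was -0.02 by genotype in aged mice (adjusted p = 0.985) and 0.26 and 0.29 with age in CTL and CKO mice (adjusted p = 0.504 and 0.406).

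Bcl2l2 (chr14:54883377-54888234, plus strand), the gene for BCL-W, had 9 to 172 counts per mouse and varied widely within groups. Young CTL mice had 1.98, 11.4, 3.05 and 1.89 CPM and young CKO mice 6.13, 5.48, 2.87 and 1.80 CPM. Aged CTL mice 65, 99, 114 and 124 had 2.83, 4.95, 23.3 and 24.1 CPM, and aged CKO mice 4.605 to 11.1 CPM. A single mouse set the young CTL mean and 2 mice set the aged CTL mean, and no pair of groups was separated. The log2 fold change from young to aged CTL mice was 1.59 (SE 0.72, adjusted p = 0.140) and became 2.57 without young CTL mouse 2 (SE 0.77, adjusted p = 0.0343). It was 0.94 in CKO mice (adjusted p = 0.381), and by genotype -0.18 in young (adjusted p = 0.985) and -0.81 in aged mice (adjusted p = 0.715). Without mice 121 and 124 these values were -0.28 by genotype in aged mice (adjusted p = 0.924) and 1.18 and 1.08 with age in CTL and CKO mice (adjusted p = 0.293 and 0.311), and without CTL 124 alone the aged genotype value was -0.42. The same 2 aged CTL mice, 114 and 124, were the highest for Mcl1 and for Bcl2l2.

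The effector Bax (chr7:45461697-45466898, minus strand) lay in a narrow range in young CTL mice, at 101.6, 100.1, 102 and 97.2 CPM, beside 92.9, 73.1, 114 and 96.4 CPM in young CKO mice. Aged CTL mice 65, 99, 114 and 124 had 75.8, 72.6, 48.0 and 77.9 CPM, and aged CKO mice 78, 81, 94, 121 and 122 had 72.7, 97.4, 94.1, 79.9 and 115 CPM. All aged CTL mice were below all young CTL mice, whereas aged CKO mice covered the range of young CKO mice. The log2 fold change with age was -0.55 in CTL (SE 0.19, 95% interval -0.95 to -0.14, adjusted p = 0.0615), which missed the threshold, and -0.03 in CKO mice (SE 0.18, -0.41 to 0.35, adjusted p = 0.926). The CTL groups did not overlap (exact permutation p = 0.0286, two-sided, the smallest for 4 against 4 mice), and neither did they for 17.1% of all genes. Bax passed at this age contrast under 5 of the 10 alternatives, among them DESeq2 (adjusted p = 0.0388) and the fit without mice 121 and 124 (log2 fold change -0.62, adjusted p = 0.0421). By genotype it was -0.09 in young (SE 0.17, adjusted p = 0.968) and 0.43 in aged mice (SE 0.21, 95% interval -0.03 to 0.88, adjusted p = 0.512), and 0.53 in aged mice without 121 and 124 (adjusted p = 0.382). The difference between these 2 genotype effects was 0.51 (SE 0.27, p = 0.0681, adjusted p = 0.999) and did not pass the test, nor did it without 121 and 124 (0.63, adjusted p = 0.701).

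Bak1 (chr17:27019810-27029009, minus strand), the other effector, had 12.8, 12.6, 12.9 and 12.4 CPM in young CTL mice and 12.3, 7.86, 8.22 and 12.02 CPM in young CKO mice. Each young CKO mouse was below each young CTL mouse, 2 of them by a small margin and 2 by a wide one. The exact permutation p was 0.0286 (two-sided, the smallest for 4 against 4 mice), groups apart to this degree were found for 4.77% of all genes, and the fitted log2 fold change was -0.32 (SE 0.36, adjusted p = 0.925), so the gene was not called. In aged mice Bak1 lay at 8.18, 17.3, 17.9 and 16.2 CPM in CTL mice 65, 99, 114 and 124 and at 17.4, 11.3, 10.5, 34.2 and 10.2 CPM in CKO mice 78, 81, 94, 121 and 122. The aged genotypes overlapped, and the mouse labelled CKO 121 was the highest. The aged log2 fold change was 0.18 (SE 0.46, adjusted p = 0.935), and -0.22 without 121 and 124 (adjusted p = 0.903). From young to aged it was 0.23 in CTL (adjusted p = 0.754) and 0.73 in CKO mice (SE 0.40, adjusted p = 0.232), and without 121 and 124 it was 0.18 and 0.29 (adjusted p = 0.798 and 0.627).

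Among the BH3-only genes, none was called in any comparison. Bcl2l11 (chr2:128126038-128162547, plus strand) encodes BIM, which answers growth factor withdrawal. It had 7.04, 12.3, 21.6 and 9.12 CPM in young CTL and 10.7, 6.76, 19.5 and 6.91 CPM in young CKO mice. In aged CTL mice 65, 99, 114 and 124 it had 4.30, 23.1, 14.0 and 2.38 CPM, and in aged CKO mice 8.31 to 16.6 CPM. The spread within a group exceeded the differences between group means, which were 12.5, 10.96, 10.9 and 11.9 CPM. The log2 fold changes by genotype were -0.20 in young (SE 0.47, 95% interval -1.19 to 0.80) and 0.14 in aged mice (SE 0.62, -1.19 to 1.47), with adjusted p of 0.975 and 0.963. With age they were -0.23 in CTL and 0.12 in CKO mice (adjusted p = 0.825 and 0.912). Over the alternatives the log2 fold change ranged from -1.37 to 0.10 with age in CTL mice and from -0.16 to 0.33 in CKO mice. By genotype it ranged from -0.25 to 1.46 in aged mice, and for the difference between ages from -0.04 to 1.70. None of these was called. The aged genotype value without mice 121 and 124 was -0.25 (adjusted p = 0.914), and the age values without them were 0.10 and 0.06 (adjusted p = 0.919 and 0.949).

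Bid (chr6:120891930-120916853, minus strand) encodes the protein that caspase 8 cleaves to link death receptors to mitochondria. It had 72.8, 76.8, 67.2 and 59.7 CPM in young CTL and 75.3, 52.4, 90.8 and 84.7 CPM in young CKO mice. Aged CTL mice 65, 99, 114 and 124 had 132, 57.3, 71.9 and 22.5 CPM, and aged CKO mice 60.1 to 108 CPM. The mouse labelled aged CTL 124 was the lowest of all 17 and aged CTL 65 the highest, and the groups overlapped throughout. The log2 fold change by genotype was 0.14 in young (SE 0.20, adjusted p = 0.954) and 0.19 in aged mice (SE 0.37, adjusted p = 0.908), and with age 0.04 in CTL and 0.09 in CKO mice (adjusted p = 0.948 and 0.878). Without 121 and 124 it was -0.03 by genotype in aged mice (adjusted p = 0.982) and 0.34 and 0.18 with age in CTL and CKO mice (adjusted p = 0.369 and 0.633).

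Bad (chr19:6941861-6951899, plus strand), whose product is held inactive by phosphorylation in the presence of growth factors, had 70.8, 50.6, 53.1 and 84.1 CPM in young CTL and 64.3, 66.3, 79.5 and 70.0 CPM in young CKO mice. Aged CTL mice 65, 99, 114 and 124 had 49.2, 56.1, 49.0 and 63.9 CPM, and aged CKO mice had 57.9 to 60.5 CPM. The 5 aged CKO mice had a mean of 59.1 CPM with an SD of 1.12, and all were below all 4 young CKO mice (exact permutation p = 0.0159, two-sided, the smallest for 5 against 4 mice), as was the case in 1 direction or the other for 20.4% of all genes. The fitted log2 fold change with age in CKO mice was -0.24 (SE 0.18, adjusted p = 0.388) and it was -0.25 in CTL mice (SE 0.19, adjusted p = 0.415), neither called. By genotype it was 0.12 in young (SE 0.20, adjusted p = 0.958) and 0.13 in aged mice (SE 0.19, adjusted p = 0.877). Without 121 and 124 it was 0.20 by genotype in aged mice (adjusted p = 0.763) and -0.33 and -0.24 with age in CTL and CKO mice (adjusted p = 0.267 and 0.392).

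Bbc3 (chr7:16308393-16318205, plus strand) encodes PUMA, which p53 induces, and had only 14 to 116 counts per mouse. Young CTL mice had 10.1, 6.50, 4.93 and 2.41 CPM and young CKO mice 7.91, 6.76, 15.3 and 6.16 CPM. Aged CTL mice had 4.06 to 12.8 CPM and aged CKO mice 6.33 to 15.3 CPM, and all groups overlapped. The log2 fold change by genotype was 0.60 in young (SE 0.53, adjusted p = 0.899) and 0.40 in aged mice (SE 0.51, adjusted p = 0.855), and with age 0.53 in CTL and 0.33 in CKO mice (adjusted p = 0.539 and 0.696). Without 121 and 124 it was 0.02 by genotype in aged mice (adjusted p = 0.992) and 0.77 and 0.20 with age in CTL and CKO mice (adjusted p = 0.345 and 0.818).

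**Figure D4:**
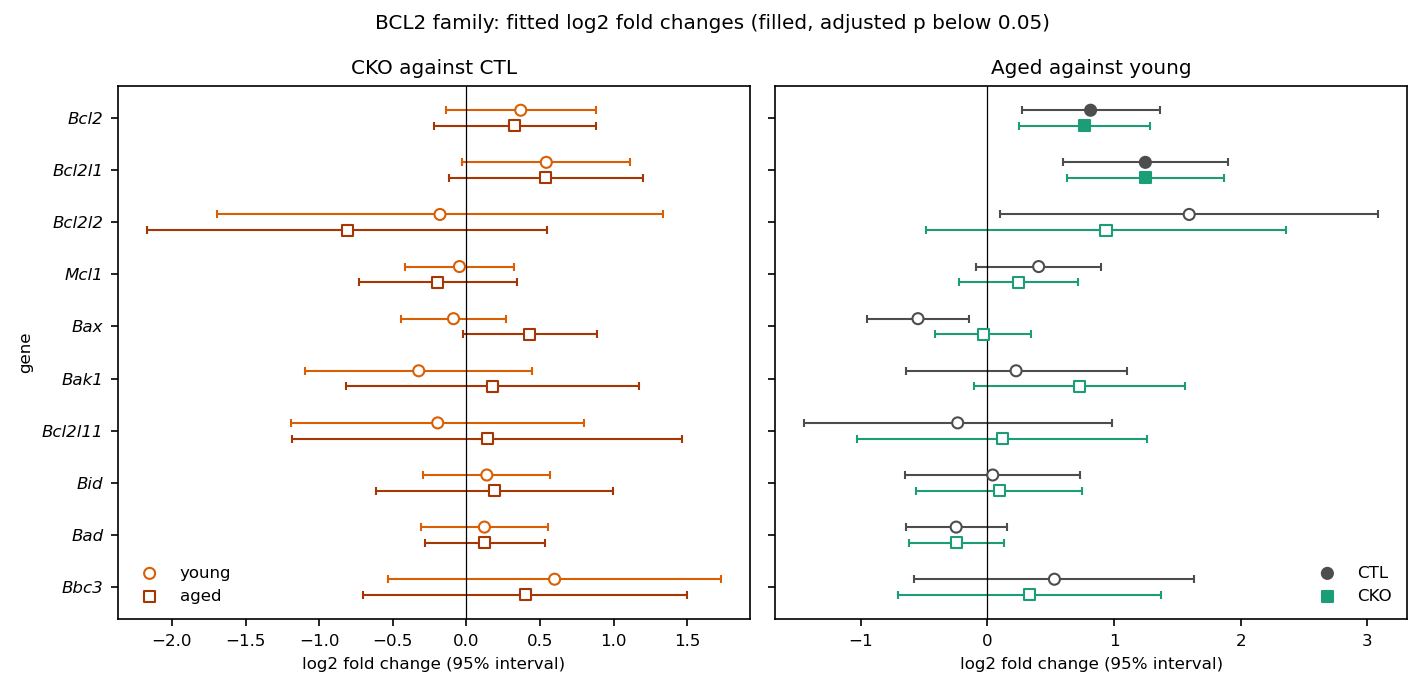
Fitted log2 fold changes of the 10 members with 95% intervals, CKO against CTL in young and aged mice (left) and aged against young in CTL and CKO mice (right), with filled symbols for adjusted p under 0.05. Filled symbols are found for Bcl2 and Bcl2l1 in the age comparison, and all intervals on the left include 0.

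Over the 10 members, the median log2 fold change by genotype was 0.04 in young and 0.18 in aged mice, beside -0.00 over all genes at each age, with 5 and 8 members above 0. The aged median without mice 121 and 124 was 0.00 with 5 members above 0, beside -0.01 over all genes. With age it was 0.32 in CTL and 0.29 in CKO mice beside 0.11 and 0.07 over all genes, with 7 and 8 members above 0, and without these mice 0.30 and 0.25 beside 0.10 and 0.05, with 8 and 9 above 0. By role, the 4 antiapoptotic genes had a median of 1.03 in CTL and 0.85 in CKO mice with age, all 4 above 0 in both, the 2 effectors had -0.16 and 0.35, 1 of 2 above 0 in each, and the 4 BH3-only genes had -0.10 and 0.11, 2 and 3 above 0. The role medians in CTL and CKO mice without mice 121 and 124 were 0.89 and 0.95 for the antiapoptotic genes (4 of 4 above 0 in both), -0.22 and 0.15 for the effectors (1 and 2 of 2) and 0.22 and 0.12 for the BH3-only genes (3 of 4 in both), so the BH3-only median changed sign in CTL mice. Of all genes 55.8% and 54.0% were above 0 with age in CTL and CKO mice. The young genotype comparison and the age comparisons share mice, so these medians are not independent of each other. No member passed the test of a difference in genotype effect between ages (0% of 12352 genes were called by the quasi-likelihood test, and 588 genes and 0 members had an unadjusted p under 0.05). DESeq2 called 0 genes for this difference, the likelihood ratio test over mice 4 and that over libraries 3, none of them a member. The interval for Bcl2l1 was -0.96 to 0.96 around 0.00, so a sizeable difference in either direction was not detectable with these mice.

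Further genes of the BCL2 family and its surroundings were read from 3 lists. Of 16 other family genes, 10 had a row and 6 were tested in young and 7 in aged mice, with 0 called by genotype at either age. Those with the smallest unadjusted p were Bok (log2 fold change -1.08, p = 0.132) and Bcl2l14 (0.69, p = 0.244) in young mice, and Bok (1.82, p = 0.054) and Bnip3 (-0.27, p = 0.219) in aged mice by edgeR. Bnip3, a mitophagy receptor with a BH3-like motif, was the list's single call with age, of 9 tested, and it fell in CKO mice from 65.0 to 111 CPM in young to 39.3 to 45.0 CPM in aged animals (log2 fold change -0.93, SE 0.20, adjusted p = 0.00344), where 9.34% of all genes were called lower. In CTL mice its log2 fold change was -0.60 (adjusted p = 0.059), and the difference between the 2 genotypes was -0.33 (adjusted p = 0.999) and did not pass the test.

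Of 19 genes of the apoptosome, caspases and their inhibitors, all were tested and 0 were called by genotype. By unadjusted p the first were Fadd (log2 fold change 0.65, p = 0.0133) and Apaf1 (-0.81, p = 0.064) in young mice, and in aged mice Cflar (-1.07, p = 0.00319) and Xiap (-1.03, p = 0.00798), both inhibitors of caspase activation, with adjusted p of 0.315 and 0.37. With age in CTL mice 2 rose and 1 fell, and in CKO mice 1 rose and 1 fell, where 6.70% and 7.21% of all genes were called higher and 8.07% and 9.34% lower in CTL and CKO mice. Cflar rose from 28.6 to 45.9 CPM in young to 47.0 to 127 CPM in aged mice (log2 fold change 1.17, SE 0.30, adjusted p = 0.0128), Birc6 rose by 0.75 (adjusted p = 0.0486) and the executioner caspase Casp6 fell by 0.66 (adjusted p = 0.0417). In CKO mice Casp2 rose by 0.78 (adjusted p = 0.0318) and Casp6 fell by 0.89 (adjusted p = 0.00492). Without mice 121 and 124 the called genes were Cflar, Cycs and Birc5 in CTL and Casp2, Casp6 and Diablo in CKO mice, and Casp6 and Birc6 were then not called in CTL mice.

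The third list held 19 kinases, adaptors and ubiquitin enzymes that act on family proteins, and again 0 were called by genotype at either age. Ywhah (log2 fold change 0.41, p = 0.00319) and Fbxw7 (-0.66, p = 0.103) came first in young mice, and Pim2 (1.00, p = 0.00370) and the MCL1 ubiquitin ligase Huwe1 (-0.87, p = 0.00459) in aged mice, with adjusted p of at least 0.317 in this list. With age, 1 rose and 3 fell in CTL mice, and 4 rose and 4 fell in CKO mice, to be read against the same shares of all genes. Pim1, a kinase that phosphorylates BAD, rose by 2.14 in CTL (SE 0.66, adjusted p = 0.0339) and 1.91 in CKO mice (SE 0.63, adjusted p = 0.0418). Dynll1, the dynein light chain that binds BIM, fell by 1.28 (SE 0.24, adjusted p = 0.00202) and by 1.37 (SE 0.22, adjusted p = 0.000413). Vdac2, the outer membrane channel that holds BAK1, fell by 0.69 and 0.47, and Ywhaq, whose product binds phosphorylated BAD, fell by 0.63 and 0.61, each in CTL and CKO mice. In CKO mice Akt1 (1.15), Akt2 (1.23) and Fbxw7 (1.08) also rose and Usp9x fell by 0.99, with adjusted p between 0.00481 and 0.0402. Without mice 121 and 124, 2 rose and 4 fell in CTL and 4 rose and 5 fell in CKO mice, and Pim1 was no longer called in CKO mice.

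Correlation over 17 mice, after centring each of the 4 groups on its mean log2 CPM, named the genes whose level varied most like 3 of the members. They were Rad21 (r = 0.85), Nomo1 (0.84) and Zc3h4 (0.84) for Bcl2, Prg4 (0.84), Atxn7l3b (0.83) and Yy1 (0.83) for Mcl1, and Akap5 (0.91), 2900011O08Rik (0.86) and Ece1 (0.86) for Bcl2l11. These are the highest values among all genes tested and come from few mice that differ in library depth, and they are given as a description. Among the members themselves the highest correlation was between Bcl2l2 and Mcl1 (r = 0.57) and the lowest between Bak1 and Bid (r = -0.44).

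The 2 libraries of a mouse differed through the cells drawn, the amplification and the depth, which cannot be told apart here. The median absolute log2 difference between the libraries of a mouse, over 16 mice, was 0.24 for Mcl1, 0.26 for Bax and Bid, 0.27 for Bad and 0.29 for Bak1. It was 0.49 for Bcl2, 0.54 for Bbc3, 0.85 for Bcl2l1, 0.87 for Bcl2l2 and 1.13 for Bcl2l11. Between libraries of different mice of 1 group it was 0.44 for Mcl1 and 0.30 for Bax, but 0.47 for Bcl2, 0.56 for Bcl2l1 and 0.94 for Bcl2l11, no more than within a mouse. Some exons are shared with other genes, and whether the counting used strand is not given in the sources used here. The overlap took in 25.5% of the exon length of Bak1 (Ggnbp1, opposite strand), 20.5% of Bad (Gpr137), 17.7% of Bid (Bcl2l13) and 6.09% of Bcl2 (D630008O14Rik), all opposite, and 13.3% of Bcl2l2 (Gm20521) and 12.2% of Bax (Gm45808) on the same strand, so the levels of these 6 genes are less certain.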

How the data were processed

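RNA-seq libraries of 100 sorted HSCs came from 17 mice (4 young CTL, 4 young CKO, 4 aged CTL and 5 aged CKO). Reads were mapped by the authors with HISAT2 to GRCm38 (mm10), and gene counts from Rsubread were deposited as whole numbers without normalization; the annotation, strand setting and treatment of shared reads are not given in the sources used here. Of 34 libraries, 33 were used. The 2 libraries of each mouse were distinct, as chi-square over degrees of freedom was 9.93 or more for all pairs. The design text of the deposited series says that the 2 samples of a mouse were treated as biological replicates. The paper gives n = 4 for the young HSCs and used likelihood ratio tests of edgeR. Here libraries were added per mouse, so p-values measure the spread between mice. The filterByExpr rule (minimum count 10, minimum total 15), TMM scaling and the quasi-likelihood test of edgeR 4.0.16 in R 4.3.3 were applied to all genes, with Benjamini-Hochberg adjustment over all genes tested and a threshold of 0.05. Young and aged mice were fitted apart for genotype, and all mice together for age and for the difference between ages. Standard errors were taken as the absolute log2 fold change over the square root of F, and 95% intervals use the t distribution of the fit. Exact permutation tests over mice used log2 CPM (prior count 2) and are two-sided. They are given only for members whose groups did not overlap, so each p is the smallest possible and adds nothing to the lack of overlap. Exon lengths (all annotated exons of a gene, merged), transcripts and sequences came from GENCODE M21 for GRCm38. Libraries hold no molecular identifiers, so the limit of 3 counts covers counting error only. The methods were tested on simulated data.

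The members and lists were chosen with earlier results of these data known. All members were named, and of the 3 lists the genes called in a comparison or, where a list had no call, the 2 with the smallest unadjusted p in the young and aged comparisons. The result of 1 HSC marker is not reported here. Nearest genes were taken for Mcl1, Bcl2 and Bcl2l11, 3 each. Alternatives were likelihood ratio tests over mice or libraries, DESeq2 1.42.0, limma 3.58.1 (voom, mouse as random effect), DESeq2 size factors, no filter, a Y-linked covariate, a replicate block, other groups in the fit, mice 121 and 124 left out, and each mouse left out in turn.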

Additional observations from a re-analysis of the deposited data

Results flagged for a closer look

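In 44 sets of values (10 members and Ythdf2 in 4 groups), the highest or lowest mouse was compared with the rest of its group by the gap to its neighbour over the range of the group, and chance alone gives about 2.2 such gaps. There were 3. Bcl2l2 stood at 11.38 CPM in young CTL mouse 2, while the next young CTL mouse had 3.05 CPM. Bak1 stood at 8.178 CPM in aged CTL mouse 65, while the next aged CTL mouse had 16.2 CPM. Ythdf2 was at 188.0 CPM in the animal with the label aged CKO 121, while the next aged CKO mouse had 87.7 CPM.

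The aged CTL 99 B library, used in no comparison, held 187034 counts. In it 7 members were above 3 counts, Bcl2 with 41, Bcl2l11 with 17, Bax with 15, Bcl2l1 with 12, Bbc3 with 8, Mcl1 with 6 and Bcl2l2 with 4. Bak1 had 2 counts, Bid 1 and Bad 0 of that total.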

How the results depend on the processing

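Of 478 log2 fold changes of members under the alternatives, 442 kept direction and side of the threshold, 26 changed sign and 10 gained or lost a call, and of 510 with a mouse left out these numbers were 439, 56 and 15. No member was called by genotype or for the difference between ages under any alternative run. Bcl2l2 was not tested when libraries were replicates in young mice. Genotype intervals rest on 4 or 5 mice a group, and their standard errors were largest for Bcl2l2 (0.71 in young and 0.63 in aged mice), Bcl2l11 (0.47 and 0.62) and Bbc3 (0.53 and 0.51).

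Genes called by genotype in young mice were 67 by likelihood ratio over mice, 90 over libraries, 77 by DESeq2, 9 with the Y-linked covariate and 1 with all mice in one fit. In aged mice they were 76, 420 and 104 by the first 3 of these, 5 with all mice in one fit, and 40 without mice 121 and 124. The difference between ages had 4 and 3 calls by likelihood ratio over mice and over libraries and 15 without 121 and 124. With age in CTL mice 921 genes were called with 2 groups in the fit, and the 1 member among them was Bcl2l1. Members called were 4 by likelihood ratio over libraries (Bcl2, Bcl2l1, Bcl2l2 and Bax). Limma called 1 member, Bax, as lower in aged mice, and neither Bcl2 nor Bcl2l1. With age in CKO mice 3112 genes were called by likelihood ratio over libraries. With 1 mouse left out, genes called ranged from 0 to 18 (young), 0 to 16 (aged, the highest without CKO 121), 0 to 2 (difference), 896 to 2048 (age, CTL) and 1183 to 1975 (age, CKO), and members called from 0 to 3 (age, CTL) and 1 to 2 (age, CKO).

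Young mice of both genotypes share numbers 1 to 4 but are different animals. Deviations of same-numbered mice correlated at 0.039, -0.044, 0.049 and 0.0037, and not every mouse correlated best with its own number. These values gave no sign of pairing by number, but with so few mice they could not show whether mice shared a litter. The paper states that control mice were littermates, and the sample labels name no litters. The replicate block on the mouse numbers gave 14 called genes and 0 members, and turned Bcl2l2 to 0.068. In aged mice the replicate block on the library letter, with libraries as replicates, gave 40 called genes and 0 members; it turned the difference between ages of Bad to -0.032 and the age effects in CKO mice of Bax to 0.0019 and of Bcl2l11 to -0.16.

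None of the values that changed sign passed the test, and the cause was not tested. With the Y-linked covariate in young mice Bcl2l2 was 0.47, Mcl1 0.14 and Bad -0.033, and Bid with age in CTL mice was -0.012. Without 121 and 124, by genotype in aged mice Bak1 was -0.22, Bcl2l11 -0.25 and Bid -0.026; for the difference between ages Bcl2 was 0.27, Bcl2l1 -0.22, Mcl1 0.031, Bcl2l11 -0.039 and Bid -0.16; with age Bcl2l11 was 0.10 in CTL and Bax 0.014 in CKO mice. The difference between ages of Bcl2l1 was also -0.0094 by DESeq2, -0.0073 with its size factors, -0.0022 without the filter and -0.12 with the Y-linked covariate. By likelihood ratio over libraries the difference of Bad was -0.036, and with age in CKO mice Bax was 0.0021 and Bcl2l11 -0.16. By limma Bid with age in CTL mice was -0.16.

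With 1 mouse left out, log2 fold changes that changed sign ranged as follows. In young mice Bcl2l2 ranged from -0.44 to 0.81, Mcl1 from -0.15 to 0.079, Bax from -0.19 to 0.017 and Bcl2l11 from -0.63 to 0.21. In aged mice Bak1 ranged from -0.26 to 0.31, Bcl2l11 from -0.20 to 0.79 and Bid from -0.12 to 0.68. For the difference between ages Bcl2 ranged from -0.31 to 0.17, Bcl2l1 from -0.23 to 0.31, Bcl2l11 from -0.045 to 0.99, Bid from -0.25 to 0.55, Bad from -0.16 to 0.10 and Bbc3 from -0.57 to 0.18. With age in CTL mice Bcl2l11 ranged from -0.88 to 0.15 and Bid from -0.47 to 0.33, and in CKO mice Bax from -0.14 to 0.060, Bcl2l11 from -0.055 to 0.54 and Bid from -0.048 to 0.18. The counts of list genes called, the members' medians and the family shares without mice 121 and 124 were chosen after seeing the data.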
